A study of Homo sapiens with 12 samples.

Results

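Telomerase and shelterin genes are described here across MCF10AT cells that carried shRNAs against EP300. The set holds 8 genes: TERT and DKC1 of the telomerase enzyme, and TERF1, TERF2, TERF2IP, POT1, TINF2 and ACD of the shelterin complex. The members were selected by function, with earlier results of these data known, and the selection names both EP300 shRNA comparisons and all 12 libraries but sets no threshold on a value. The values of the 8 genes in those comparisons are therefore given as a description, without p-values. NS2 against NS1 uses the control libraries of the same comparisons, so its p-values for the 8 genes are not independent of the selection. How many of the 8 genes lay past the threshold of the fit over all genes is given once, beside the share of all genes, and supports nothing. The 8 genes account for 14 of the 29094 RefSeq accession rows in the count table. Of these, 9 rows from 7 genes had enough counts to enter the fit of 13424 rows, and no row of POT1 did.

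MCF10AT is an established human mammary epithelial line transformed by an activated HRAS, so all 4 groups carry that oncogene. Each group was made by lentiviral transduction and puromycin selection and has 3 libraries of messenger RNA. NS1 and NS2 express non-silencing control hairpins, and EP300 KD1 and EP300 KD2 each express a different hairpin against EP300, which encodes the acetyltransferase and transcriptional coactivator p300. Which control belongs to which EP300 hairpin is not spelled out in the labels, and lines of equal number were compared. The labels do not say whether replicates came from separate cultures, so the spread and the p-values measure only the differences between these libraries, which may be technical.

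Telomeres are the repeat-bearing ends of chromosomes, and they shorten as cells divide unless telomerase extends them. TERT is the catalytic protein subunit of telomerase, and its low expression limits the enzyme in most somatic cells. Shelterin coats the repeats: TERF1 and TERF2 bind double-stranded repeats, POT1 binds the single-stranded overhang, and TINF2 and ACD bridge both kinds of binding and bring telomerase to the end.

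Total counts per library ran from 31396653 to 45606950. The level of EP300 mRNA was 172 ± 5.11 CPM (counts scaled to library size by TMM and set per 1e6; SD, n = 3) in NS1 and 107 ± 0.884 CPM in EP300 KD1, so that 62.4% was left. It was 174 ± 8.14 CPM in NS2 and 95.8 ± 3.87 CPM in EP300 KD2, with 55.0% left. Both differences passed edgeR's quasi-likelihood test after Benjamini-Hochberg adjustment (log2 fold change -0.68 ± 0.03 SE, adjusted p = 2.6e-12, and -0.86 ± 0.04, adjusted p = 1.1e-13). Of the 8 mammary epithelial markers, 7 averaged at least 1 CPM, while the basal keratin KRT14 averaged 0.461 CPM. The summed level of these markers was 5496 to 5607 CPM in NS1, 6177 to 6258 in NS2, 3301 to 3403 in EP300 KD1 and 3157 to 3206 in EP300 KD2. Fibroblast markers summed to 117 to 120 CPM in EP300 KD1 and to between 48.8 and 59.6 CPM in the other groups, with COL1A2, COL3A1 and LUM at 0 in all 12 libraries. Leukocyte markers summed to between 37.8 and 74.5 CPM, carried by CD14 and CD68, while PTPRC held 3 counts and CD3E 1 count over all 12 libraries. Endothelial markers summed to 28.7 to 40.5 CPM in the controls and to 5.33 to 11.2 CPM in the EP300 shRNA lines. That sum was nearly all PECAM1, which averaged 20.8 CPM over the 12 libraries, against 0.0445 for VWF, 0.0679 for CDH5 and 0.460 for KDR. The part of these shifts in the results below was not tested, and in bulk RNA fewer cells of a type and less RNA per cell cannot be told apart.

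Promoter sequence is shown for TINF2 and ACD, because the first was higher in both EP300 shRNA lines than in every control library and the second was below every control library in one line and above every control library in the other. The 250 bases before the RefSeq gene start (GRCh38.p14) are printed 5′ to 3′ on the gene's strand. Capitals mark matches, on either strand, to the GC box GGGCGG, a motif of SP-family factors, and to the core TGACG of the cyclic AMP response element, a motif of CREB-family factors. TINF2 lies at chr14:24242675-24242924 and ACD at chr16:67660261-67660510, both on the minus strand.
TINF2: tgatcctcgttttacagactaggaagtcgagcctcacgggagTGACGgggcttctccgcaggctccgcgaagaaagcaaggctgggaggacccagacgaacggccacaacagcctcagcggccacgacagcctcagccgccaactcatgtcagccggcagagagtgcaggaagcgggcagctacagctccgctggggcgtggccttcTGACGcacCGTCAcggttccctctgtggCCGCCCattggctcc
ACD: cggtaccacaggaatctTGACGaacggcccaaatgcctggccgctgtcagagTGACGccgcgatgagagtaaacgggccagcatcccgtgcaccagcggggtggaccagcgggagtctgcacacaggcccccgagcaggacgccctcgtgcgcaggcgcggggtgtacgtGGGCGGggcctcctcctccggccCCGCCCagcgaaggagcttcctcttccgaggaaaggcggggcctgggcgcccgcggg

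The TINF2 window held 3 TGACG cores, starting 208, 43 and 35 bases before the gene start, and 1 GC box at 15 bases. The ACD window held 2 TGACG cores, at 233 and 198 bases, and 2 GC boxes, at 80 and 57 bases. Neither window held the E-box CACGTG or the ETS core CCGGAA. Among 27305 RefSeq promoter windows of the same length, 42.3% held the GC box, 21.7% TGACG, 14.8% CCGGAA and 6.49% CACGTG. The searched motifs did not overlap each other in these windows, and a match is a description of the letters only.

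TERT, the telomerase reverse transcriptase (NM_198253, chromosome 5, 1253167 to 1295068, GRCh38), was the member that differed most, and it differed in opposite directions with the 2 EP300 hairpins. TERT counts were 43, 50 and 57 in NS1 and 12, 9 and 17 in EP300 KD1. They were 24, 27 and 34 in NS2 and 82, 57 and 44 in EP300 KD2. Every EP300 KD1 library was below all 6 controls, and every EP300 KD2 library was above all 3 NS2 libraries.

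On the CPM scale, TERT was at 1.25, 1.54 and 1.26 CPM in NS1 (1.35 ± 0.162, SD, n = 3) and at 0.385, 0.258 and 0.494 CPM in EP300 KD1 (0.379 ± 0.118). It was at 0.758, 0.813 and 1.04 CPM in NS2 (0.872 ± 0.152) and at 1.95, 1.57 and 1.36 CPM in EP300 KD2 (1.62 ± 0.301). The EP300 KD2 range overlapped that of NS1 but not that of its own control NS2. The fitted level of TERT in EP300 KD1 was 0.283 times that in NS1 (log2 -1.82 ± 0.24 SE), and in EP300 KD2 it was 1.87 times that in NS2 (log2 0.91 ± 0.20). The log2 difference between the hairpins was 2.72 ± 0.31. Against both controls pooled (6 libraries) the log2 values were -1.51 and 0.60. These values rest on 9 to 82 reads per library, which limits their precision.

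The 2 control lines also differed in TERT, which was lower in NS2 than in NS1. The log2 value was -0.62 ± 0.20 SE (edgeR adjusted p = 0.03, not independent of the selection). That call was lost with DESeq2 (log2 -0.63, adjusted p = 0.095), without NS1 replicate 2 (-0.53, adjusted p = 0.1), without NS2 replicate 1 (-0.53, adjusted p = 0.11) and without NS2 replicate 2 (-0.57, adjusted p = 0.095).

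**Figure D1:**
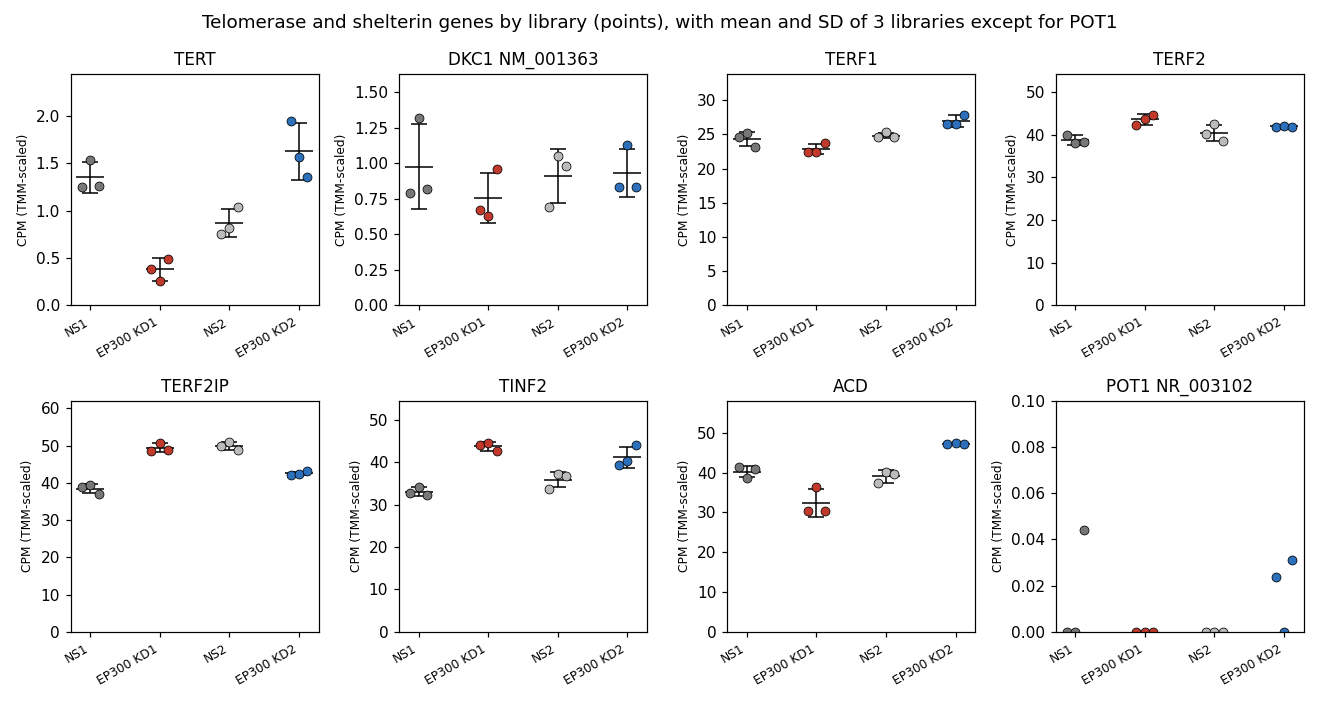
Level of each telomerase and shelterin gene (vertical axis, TMM-scaled CPM) in each of the 12 libraries, grouped by line; points are libraries and, except for POT1, bars are the mean and SD of 3. TERT lies at 0.258 to 0.494 CPM in EP300 KD1 and at 1.36 to 1.95 CPM in EP300 KD2, while DKC1 and POT1 are shown by the accession row with the most counts.

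DKC1, the dyskerin subunit that stabilises the telomerase RNA (chromosome X, 154762864 to 154777689), could be read only in part. The table holds 4 rows for DKC1, with 375, 352, 166 and 5 counts over all 12 libraries. Across the table, the median coding symbol split over more than 1 row held 45 counts in all libraries together, against 3397.0 for a coding symbol with 1 row, so the level of DKC1 is uncertain. The row with the most counts, NM_001363, was at 0.788, 1.32 and 0.817 CPM in NS1 (0.975 ± 0.300, SD, n = 3) and at 0.674, 0.631 and 0.958 CPM in EP300 KD1 (0.754 ± 0.178). It was at 0.695, 1.05 and 0.984 CPM in NS2 (0.911 ± 0.190) and at 0.833, 1.13 and 0.833 CPM in EP300 KD2 (0.931 ± 0.169). The groups of NM_001363 overlapped in both comparisons (log2 -0.35 ± 0.25 SE and 0.03 ± 0.24). The row NR_110021 was at -0.53 ± 0.22 in EP300 KD1, where the groups overlapped, and at -0.29 ± 0.21 in EP300 KD2, where all 3 libraries were below all 3 NS2 libraries. The row NR_110022 was at -0.32 ± 0.32 and -0.47 ± 0.32, with overlap in both. The rows of DKC1 thus gave different values for the same lines. With the 4 rows summed, the log2 values were -0.41 and -0.17. The small RNA genes SNORA36A, SNORA56 and MIR664B lie on the same strand and share 2.78%, 3.07% and 1.45% of its exonic bases in GENCODE.

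TERF1, which binds double-stranded telomeric repeats (NM_003218, chromosome 8, 73008864 to 73048123), differed little. It was at 24.6, 25.2 and 23.2 CPM in NS1 (24.3 ± 1.07, SD, n = 3) and at 22.5, 22.5 and 23.7 CPM in EP300 KD1 (22.9 ± 0.679), and these groups overlapped. It was at 24.6, 25.3 and 24.6 CPM in NS2 (24.8 ± 0.401) and at 26.5, 26.5 and 27.9 CPM in EP300 KD2 (27.0 ± 0.838). All 3 EP300 KD2 libraries were above all 6 controls. The log2 fold changes of TERF1 were -0.08 ± 0.04 SE and 0.12 ± 0.04. With 1 library left out at a time the first ran from -0.12 to -0.05 and the second from 0.10 to 0.14.

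TERF2, the second double-stranded repeat binder, which protects ends from being joined (NM_005652, chromosome 16, 69355567 to 69386007), was slightly higher in EP300 KD1. It was at 40.0, 38.0 and 38.3 CPM in NS1 (38.8 ± 1.10, SD, n = 3) and at 42.3, 43.8 and 44.7 CPM in EP300 KD1 (43.6 ± 1.18), without overlap. It was at 40.2, 42.4 and 38.6 CPM in NS2 (40.4 ± 1.92) and at 41.8, 42.1 and 41.9 CPM in EP300 KD2 (41.9 ± 0.191), where the NS2 range enclosed the EP300 KD2 range. The log2 fold changes of TERF2 were 0.17 ± 0.04 SE and 0.05 ± 0.04. The second was 0.10 with upper-quartile scaling or no filter and 0.12 with library totals. TERF2 shares 98 exonic bases with AC026464.3 on the same strand.

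TERF2IP, known as RAP1, which is recruited to telomeres by TERF2 (NM_018975, chromosome 16, 75647773 to 75657432), differed as much between the control lines as in either EP300 shRNA line. It was at 38.8, 39.5 and 37.0 CPM in NS1 (38.4 ± 1.32, SD, n = 3) and at 48.6, 50.8 and 48.9 CPM in EP300 KD1 (49.4 ± 1.19). It was at 49.9, 51.0 and 48.7 CPM in NS2 (49.9 ± 1.13) and at 42.2, 42.4 and 43.1 CPM in EP300 KD2 (42.6 ± 0.475). The EP300 KD1 libraries were above NS1 and within or next to the range of NS2, and the EP300 KD2 libraries lay between the 2 controls.

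The log2 fold changes of TERF2IP were 0.37 ± 0.03 SE and -0.23 ± 0.03. Between the controls, TERF2IP rose in NS2 against NS1 by 0.38 ± 0.03 on the log2 scale (edgeR adjusted p = 1.7e-07, not independent of the selection). All 3 NS2 libraries were above all 3 NS1 libraries. Against both controls pooled, the values were 0.18 and -0.04. The starts of TERF2IP and of KARS, a gene on the opposite strand, overlap and share 176 exonic bases in GENCODE (5.21% of those of TERF2IP), and whether counting used strand is not given in the sources used here.

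TINF2, the central bridge of shelterin that holds TERF1, TERF2 and ACD together (NM_012461, chromosome 14, 24239640 to 24242674), was higher in both EP300 shRNA lines. It was at 32.7, 34.2 and 32.2 CPM in NS1 (33.0 ± 1.08, SD, n = 3) and at 44.1, 44.6 and 42.6 CPM in EP300 KD1 (43.8 ± 1.06). It was at 33.8, 37.2 and 36.7 CPM in NS2 (35.9 ± 1.86) and at 39.3, 40.2 and 44.0 CPM in EP300 KD2 (41.2 ± 2.50). All 6 EP300 shRNA libraries were above all 6 control libraries. The log2 fold changes of TINF2 were 0.41 ± 0.05 SE and 0.20 ± 0.05, and the difference between the hairpins was -0.21 ± 0.06. The controls differed by 0.12 ± 0.05 (NS2 against NS1, edgeR adjusted p = 0.06). That control difference passed the threshold without NS1 replicate 2 (0.15, adjusted p = 0.045), without NS2 replicate 1 (0.17, adjusted p = 0.02) and without EP300 KD2 replicate 3 (0.12, adjusted p = 0.033).

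ACD, known as TPP1, which binds POT1 and recruits telomerase (NM_022914, chromosome 16, 67657512 to 67660260), differed in opposite directions in the 2 lines, as TERT did. It was at 41.4, 38.6 and 40.9 CPM in NS1 (40.3 ± 1.49, SD, n = 3) and at 30.4, 36.5 and 30.3 CPM in EP300 KD1 (32.4 ± 3.54). It was at 37.3, 40.1 and 39.8 CPM in NS2 (39.1 ± 1.54) and at 47.2, 47.5 and 47.2 CPM in EP300 KD2 (47.3 ± 0.193). The EP300 KD1 libraries were below all 6 controls and the EP300 KD2 libraries above them. EP300 KD1 replicate 2 lay apart from the other 2 libraries of its line. The log2 fold changes of ACD were -0.32 ± 0.05 SE and 0.28 ± 0.05, and the difference between the hairpins was 0.59 ± 0.08. The controls did not differ past the threshold (-0.05 ± 0.05, edgeR adjusted p = 0.58). ACD shares 58 exonic bases with CARMIL2 on the opposite strand.

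POT1, the single-strand binder (chromosome 7, 124822386 to 124929825), could not be measured in this table. Its 4 rows held 4 counts in all 12 libraries: 2 in NS1 replicate 3, 1 in EP300 KD2 replicate 1 and 1 in EP300 KD2 replicate 3, all in NR_003102. The coding row NM_015450 was at 0 in every library. A count of 0 allows up to 3 counts, or between 0.0662 and 0.0963 CPM per library, for counting error only. As with DKC1, several rows stand for 1 gene, so these values describe the rows and not the POT1 mRNA.

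**Figure D2:**
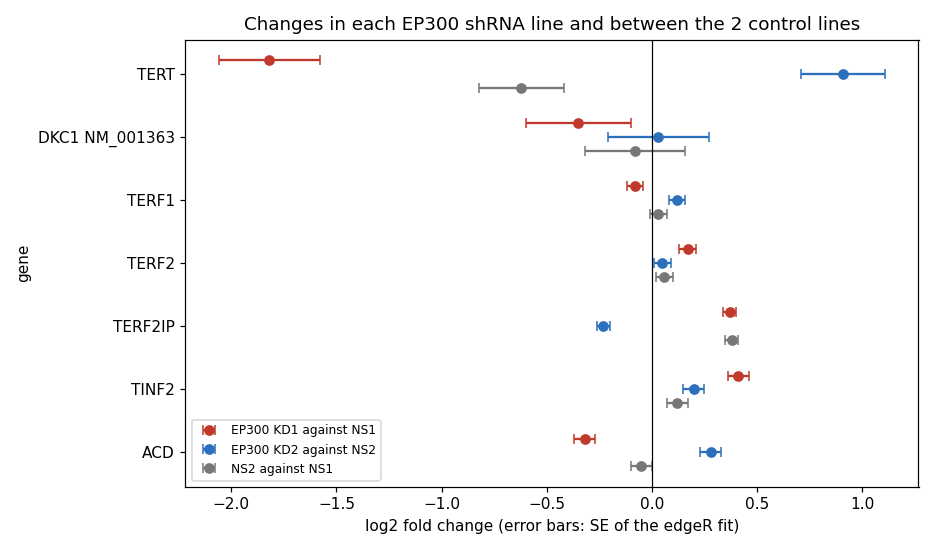
Log2 fold change (horizontal axis) of the 7 fitted telomerase and shelterin genes in each EP300 shRNA line against its control and in NS2 against NS1; points are the edgeR estimates and bars their SE. TERT (-1.82 and 0.91) and ACD (-0.32 and 0.28) lie on opposite sides of 0 in the 2 lines, TINF2 (0.41 and 0.20) on the same side, and TERF2IP differs by 0.38 between the controls.

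Of the 7 genes fitted, 3 were past the threshold as higher and 2 as lower in EP300 KD1, where 32.6% of all genes were called higher and 32.3% lower. In these counts DKC1 was taken by its row with the most counts, NM_001363. Its row NR_110021, and its rows summed, were past the threshold as lower in EP300 KD1. In EP300 KD2, 4 were past it as higher and 1 as lower, where 27.9% of all genes were called higher and 29.9% lower. For the difference between the hairpins, 3 were past it as higher in the second set and 2 as lower, beside 21.6% and 29.2% of all genes. Because these comparisons are named in the selection of the genes, nothing is read from those counts. The median log2 value of the 7 genes was -0.08 in EP300 KD1 and 0.12 in EP300 KD2, and that of all genes was -0.01 and 0.00. Between the controls, TERF2IP was called higher and TERT lower, beside 14.2% and 13.4% of all genes, and nothing is read from these calls.

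Levels were compared between genes per kilobase of transcript. In NS1 the order was ACD at 24.8 ± 0.914 CPM per kb (SD, n = 3), TERF2IP at 18.1 ± 0.622, TINF2 at 15.2 ± 0.498, TERF2 at 13.0 ± 0.368, TERF1 at 7.44 ± 0.327 and TERT at 0.336 ± 0.0403. In NS2, ACD at 24.0 ± 0.947 CPM per kb and TERF2IP at 23.5 ± 0.536 did not differ beyond their spread. In EP300 KD1 the highest was TERF2IP, at 23.3 ± 0.563 CPM per kb, and TINF2 at 20.2 ± 0.491 and ACD at 19.9 ± 2.18 did not differ beyond their spread. In EP300 KD2 the highest was ACD, at 29.1 ± 0.119 CPM per kb, and TERF2IP at 20.1 ± 0.224 and TINF2 at 19.0 ± 1.15 did not differ beyond their spread. TERT was the lowest of these 6 genes in all 4 groups, at 0.0943 ± 0.0293 CPM per kb in EP300 KD1, 0.217 ± 0.0379 in NS2 and 0.404 ± 0.0748 in EP300 KD2.

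**Figure D3:**
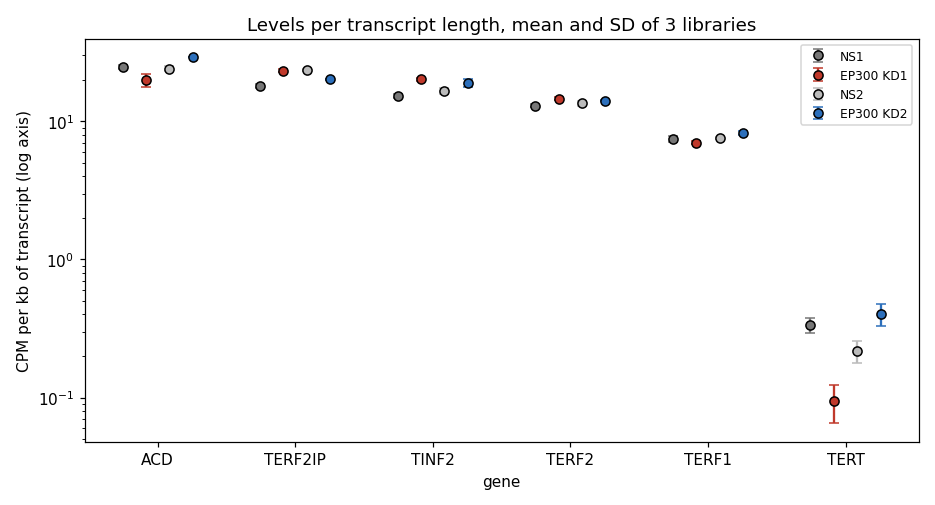
Level per kilobase of transcript (vertical log axis, CPM per kb) of the 6 genes with a single accession row, in each line; points are means and bars the SD of 3 libraries. The 5 shelterin genes lie between 7.01 and 29.1 CPM per kb, and TERT between 0.0943 and 0.404.

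The genes whose pattern over the 12 libraries was most like each member were sought among 10616 coding genes by Pearson's r of log2 CPM. The points share libraries and line, and r is a description. For TERT these were AKAP8 (r = 0.97) and UBE2G2 (0.96). For ACD they were MGAT1 (0.97) and CDAN1 (0.97), and for TINF2 they were FXR2 (0.98) and CERS2 (0.97). For TERF1 they were NCBP1 (0.97) and KCNQ5 (0.96), for TERF2 GLS2 (0.95) and KIF16B (0.95), and for TERF2IP KCTD15 (0.97) and DLG1 (0.97).

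Beyond the 8 genes, 63 further telomere genes on 5 lists were examined, of which 58 were tested. In EP300 KD1, 14 rose and 29 fell (median log2 -0.09), and in EP300 KD2, 29 rose and 9 fell (median 0.13). Of all genes tested, 32.6% rose and 32.3% fell in EP300 KD1 (median -0.01), and 27.9% rose and 29.9% fell in EP300 KD2 (median 0.00), and the counts of each list below stand beside these shares. These lists and the S phase list were also chosen with earlier results of these data known. Their counts are therefore a description, and nothing is read from their distance to these shares. The difference between the hairpins passed the test as higher in the second set for 34 and as lower for 13, beside 21.6% and 29.2% of all genes. All p-values below are edgeR's, adjusted over 13424 genes.

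Among 13 tested genes that assemble telomerase or mature its RNA, 1 rose and 9 fell in EP300 KD1, and 8 rose and 1 fell in EP300 KD2 (median log2 -0.13 and 0.16, beside -0.01 and 0.00 for all genes). Over all genes, 32.3% fell in EP300 KD1 and 27.9% rose in EP300 KD2. The box H/ACA proteins NHP2 and GAR1, partners of dyskerin, fell in EP300 KD1 (log2 -0.27 ± 0.03 SE, adjusted p = 3.8e-08, and -0.29 ± 0.04, adjusted p = 2.9e-06). In EP300 KD2 they were at 0.03 (adjusted p = 0.34) and 0.05 (adjusted p = 0.24), and both passed the threshold as higher with upper-quartile scaling, library totals or no filter. WRAP53, which brings telomerase to Cajal bodies, rose in EP300 KD2 (0.62 ± 0.04, adjusted p = 7.4e-11). In EP300 KD1 it was at -0.09 (adjusted p = 0.049), a call lost in every alternative but 1 of those run. ZCCHC8, of the nuclear exosome targeting complex, fell in both lines (-0.33 and -0.31), and EXOSC10, a nuclear exosome nuclease, rose in EP300 KD2 (0.21, adjusted p = 2.1e-06). The 1 gene that rose in EP300 KD1 was PARN, a deadenylase that trims the telomerase RNA, at log2 2.97. That value rests on EP300 KD1 replicate 1, with 180 counts against 5 to 16 in the other libraries, and was 0.15 without it (adjusted p = 0.81). The telomerase RNA TERC held too few counts to be tested in these mRNA libraries.

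Among 10 tested genes of the CST complex and telomere replication, 1 rose and 6 fell in EP300 KD1, and 5 rose and 1 fell in EP300 KD2 (median log2 -0.30 and 0.44). Over all genes 32.6% rose and 32.3% fell in the first line, and 27.9% and 29.9% in the second. POLA2, a subunit of DNA polymerase alpha-primase, fell in EP300 KD1 (log2 -0.68 ± 0.04 SE) and rose in EP300 KD2 (0.49 ± 0.03). The difference of 1.17 ± 0.05 passed the interaction test (adjusted p = 9.0e-13). POLA2 was named by its small p in the same comparisons, so that test is not independent of the choice. The flap nuclease FEN1 (-0.55 and 0.54) and the helicase BLM (-0.32 and 0.69) likewise fell in the first line and rose in the second. The other genes that rose in EP300 KD2 were POLA1 and PRIM2. The primase subunit PRIM1 fell in EP300 KD1 (-0.67) and was at 0.11 in EP300 KD2 (adjusted p = 0.067), a value that passed the threshold in 7 of the other settings besides leaving out libraries. STN1, a CST subunit, was the gene that went the other way, at 0.25 in EP300 KD1 and -0.38 in EP300 KD2.

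Of 14 genes of end processing and end protection, 3 rose and 5 fell in EP300 KD1, and 10 rose and 1 fell (RAD50) in EP300 KD2 (median log2 0.00 and 0.14). Among all genes tested, 32.6% rose and 32.3% fell in EP300 KD1, and 27.9% rose and 29.9% fell in EP300 KD2. The damage kinase ATM (log2 0.35) and the tankyrase TNKS2 (0.32), which modifies TERF1, rose in EP300 KD1, as did TNKS, and the nuclease MRE11 fell (-0.30), as did DCLRE1B, ATR, PRKDC and XRCC6. In EP300 KD2, ATM was at -0.05 (adjusted p = 0.15), while TNKS2 (0.11) and MRE11 (0.18) rose. The Ku subunits XRCC5 and XRCC6 rose in EP300 KD2 (0.26 and 0.15), as did the nuclease scaffold SLX4 (0.33). In EP300 KD1, XRCC6 was at -0.08 (adjusted p = 0.0058), XRCC5 was at 0.00 (adjusted p = 0.92) and SLX4 at 0.08 (adjusted p = 0.16).

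Of 8 tested genes of telomeric chromatin and repeat binding, 6 rose and 2 fell in EP300 KD1, and 3 rose and 2 fell in EP300 KD2 (median log2 0.17 and 0.02). The shares of all genes were 32.6% higher and 32.3% lower in EP300 KD1, and 27.9% and 29.9% in EP300 KD2. SMCHD1 was among those that fell in EP300 KD1, and HMBOX1 among those that fell in EP300 KD2. The nuclear body genes SP100 (log2 0.66 and 0.38) and PML (0.25 and 0.13) and the dNTP hydrolase SAMHD1 (0.59 and 0.91) rose in both lines. ZBTB48, a repeat-binding zinc finger protein, fell in EP300 KD2 (-0.27, adjusted p = 6.1e-04). In EP300 KD1 it was at -0.14 (adjusted p = 0.046), a call lost with DESeq2 (-0.14, adjusted p = 0.093) and in several other settings.

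Of 13 tested genes known to regulate TERT transcription, 3 rose and 7 fell in EP300 KD1, and 3 rose and 4 fell in EP300 KD2 (median log2 -0.08 and -0.03). Beside these counts, 32.6% of all genes rose and 32.3% fell in EP300 KD1, and 27.9% rose and 29.9% fell in EP300 KD2. E2F1, a cell cycle transcription factor, fell in EP300 KD1 (log2 -1.12 ± 0.05 SE, adjusted p = 6.9e-13) and rose in EP300 KD2 (0.39 ± 0.05, adjusted p = 7.9e-07). ETS2 fell in both lines (-0.90 and -1.22) and ETS1 rose in both (0.64 and 0.49). MXD1, which competes with MYC for MAX, fell in both (-0.17 and -1.02). The control lines also differed in MXD1, which was higher in NS2 than in NS1 (0.39 ± 0.03, adjusted p = 5.5e-08). MYC itself was at 0.19 in EP300 KD1 and -0.21 in EP300 KD2, and both values passed the threshold. MEN1 rose in both lines and SP1 fell in both.

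The S phase list moved the same way as TERT and ACD in each line. All 13 tested genes fell in EP300 KD1 (median log2 -0.64) and all 13 rose in EP300 KD2 (median 0.44), beside 32.3% and 27.9% of all genes. The replicative helicase subunit MCM3 went from 250 ± 3.91 CPM in NS1 to 115 ± 1.77 CPM in EP300 KD1, and from 230 ± 5.85 CPM in NS2 to 312 ± 8.69 CPM in EP300 KD2 (SD, n = 3). The helicase subunits MCM7 (-0.62 and 0.42), MCM5 (-0.76 and 0.52) and MCM4 (-0.55 and 0.54) and the ribonucleotide reductase subunit RRM2 (-0.26 and 0.74) followed. The part of this shift in the values of TERT and ACD was not tested.

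**Figure D4:**
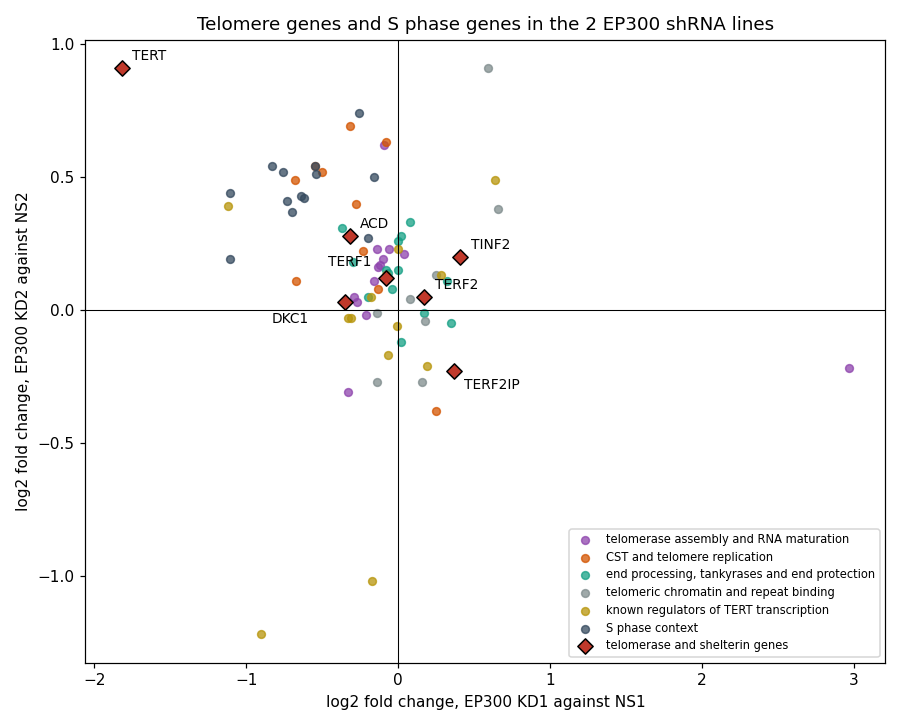
Log2 fold change in EP300 KD1 against NS1 (horizontal axis) and in EP300 KD2 against NS2 (vertical axis) for the 7 fitted telomerase and shelterin genes (diamonds), the other tested telomere genes and the S phase genes (circles, by list). TERT, ACD, TERF1, DKC1 and all 13 S phase genes lie at the upper left, as do POLA2, FEN1 and BLM. TINF2 and TERF2 lie at the upper right, TERF2IP at the lower right, and the point at 2.97 is PARN.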

How the data were processed

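The authors deposited raw counts for 29094 RefSeq accession rows in 12 libraries. HISAT2 2.1.0, hg38 and featureCounts were named in the submitters' processing notes. Not given in the sources used here were the featureCounts version, its annotation, and whether it used strand or reads with several alignments. Symbols and coordinates came from RefSeq (GRCh38.p14) for 28134 rows, and rows without a symbol held 0.702% of counts. Transcript lengths came from GENCODE.

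Counts were fitted with edgeR 4.0.16 in R 4.3.3 (filterByExpr, TMM, quasi-likelihood test, 1 mean per group over 12 libraries, Benjamini-Hochberg over 13424 genes, threshold 0.05). SEs were derived from the test statistic. The common biological coefficient of variation was 0.0300. Counts of every replicate pair differed by more than sampling noise, so each library was kept as a sample. Alternatives were DESeq2 1.42.0, limma-voom 3.58.1, other scalings and filters, only the 2 groups compared, pooled controls, a replicate block and each library left out. Summing rows per symbol, and the PARN value without 1 library, were chosen after seeing the data. The procedure was tested on simulated counts that gave every gene the same biological spread, and no value reported here rests on that run.

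The members and lists were chosen with earlier results of these data known. From each list, up to 3 genes with the smallest p in each EP300 shRNA comparison were named, and for each member of at least 1 CPM the 2 most alike genes. PARN, STN1, MYC, MEN1, SP1, POLA1, PRIM2, TNKS, DCLRE1B, ATR, PRKDC, RAD50, SMCHD1 and HMBOX1 are named beside this rule, picked once their values were known. Promoter windows of 2 members are shown, and TERF1 and TERF2 had no entry in the promoter table.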

Additional observations from a re-analysis of the deposited data

Results flagged for a closer look

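In 4 telomerase and shelterin genes, every library of one EP300 shRNA line lay above the mean of its control and every library of the other below it. The log2 change in the EP300 KD2 set minus that in the EP300 KD1 set was 2.72 for TERT, 0.20 for TERF1, -0.59 for TERF2IP and 0.59 for ACD. In NS2 against NS1, TERF2IP was at 0.38, TERT at -0.62, ACD at -0.05 and TERF1 at 0.03. Against both controls pooled, TERF2IP was at 0.18 in EP300 KD1 and -0.04 in EP300 KD2, so its values depend on the control taken. These are descriptions: the comparisons were named when the genes were selected, so the difference was not tested on values independent of that choice, and the fit over all genes is not used as such a test.

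The same difference passed edgeR's interaction test (adjusted over 13424 genes) for 26 of the 29 other genes named by rule, beside 21.6% of all genes as higher and 29.2% as lower in the EP300 KD2 set. Apart from EP300, these genes were picked by the smallest p in the same 2 comparisons. That choice favours a high count, so nothing is read from it. The difference was -0.18 for EP300 itself. In telomerase assembly it was 0.30 for NHP2, 0.34 for GAR1, 0.71 for WRAP53 and 0.17 for EXOSC10. In telomere replication it was 1.17 for POLA2, 1.09 for FEN1, 0.78 for PRIM1 and 1.01 for BLM. In end processing and protection it was -0.40 for ATM, -0.22 for TNKS2, 0.49 for MRE11, 0.25 for XRCC5, 0.26 for SLX4 and 0.22 for XRCC6. In telomeric chromatin it was -0.28 for SP100 and 0.32 for SAMHD1. Among regulators of TERT it was -0.33 for ETS2, 1.52 for E2F1, -0.15 for ETS1 and -0.85 for MXD1. In the S phase list it was 1.55 for MCM3, 1.04 for MCM7, 1.28 for MCM5, 1.00 for RRM2 and 1.09 for MCM4. Of the 14 genes named after their values were seen, 12 passed the same test, among them STN1 at -0.63. Nothing is read from that count either.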

How the results depend on the processing

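None of the results recomputed changed direction while past the threshold. Of the counts of genes called, 3 moved by more than 1.5 times. The count of telomerase and shelterin genes called lower in EP300 KD2 was 1, and 0 with both controls pooled, where TERF2IP was lost. The count called higher in NS2 against NS1 was 1, and 2 with no filter on low counts or only the 2 groups compared, where TINF2 was gained, and ranged from 1 to 2 with each library left out. The count called lower in NS2 against NS1 was 1, and 0 with DESeq2, where TERT was lost, and ranged from 0 to 1 with each library left out. With the replicate number as a block, 3 members were called higher and 2 lower in EP300 KD1, and 4 higher and 1 lower in EP300 KD2. Same-numbered libraries did not deviate together (correlations from -0.04 to 0.03, beside -0.05 to 0.04 for libraries of unlike number). No shared shift was seen, but this cannot tell whether libraries of equal number were prepared together. The block ended the EP300 KD1 calls of WRAP53 and ZBTB48. Upper-quartile scaling moved the median of all genes in EP300 KD2 to 0.05 and library totals moved it to 0.07. Few counts limit the values of TERT, DKC1 and POT1 most, and for DKC1 and POT1 several rows stand for 1 gene. As a description, of the members' log2 fold changes under other settings, 248 stayed on their side of the threshold, 8 newly passed it and 3 no longer did, and with a library left out these numbers were 323, 7 and 6. For the other genes named they were 781, 13 and 18, and 1020, 5 and 19.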
